A study of Mus musculus with 8 samples.

Results

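The MYC network is a group of transcription factors that compete for a shared partner, MAX. The 10 genes described here were chosen by name as the MYC, MAX and MXD network: the activators Myc, Mycn and Mycl, the partner Max, the repressors Mxd1, Mxi1, Mxd3, Mxd4 and Mnt, and the large MAX-binding factor Mga. All 10 were found among the 34478 gene symbols of the table, and all 10 passed the filter on low values, which left 15888 genes whose mean reached 10 normalized counts.

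RNA came from 4 primary murine pancreatic ductal adenocarcinoma (PDAC) cell lines, numbered #1, #3, #5 and #10, each cultured with the MEK inhibitor trametinib at the half-maximal inhibitory dose of that line for 48 h, or with the solvent DMSO as the control. There were 8 libraries, 1 for each line and treatment, so that lines serve as replicates and a change within a single line has no replicate. All lines, controls included, derive from tumors of mice whose alleles include Ptf1awt/Cre and Trp53loxP/loxP, in which Cre from the Ptf1a locus of pancreatic cells deletes Trp53. The labels give neither the doses as numbers nor the age of the mice.

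As background, MYC proteins bind DNA only as dimers with MAX, mostly at E-box sequences, and raise the transcription of genes for ribosome assembly, nucleotide and polyamine synthesis and cell growth. MXD proteins and MNT dimerize with the same MAX, occupy the same sites and recruit the SIN3 corepressor, and several of them are known to rise as cells leave the cycle. MGA also pairs with MAX and is part of a Polycomb complex that silences genes. ERK, the kinase below MEK, phosphorylates the MYC protein and stabilizes it, a step that RNA measurements do not show.

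With trametinib, Myc fell 2.01-fold while its relatives Mycn and Mycl rose 3.04- and 2.98-fold, and the repressor gene Mxd4 rose 7.69-fold on average. Of the 10 genes, 4 were higher (Mxd4, Mycn, Mycl and Mnt) and 3 were lower (Myc, Mxd3 and Max) in limma with a term for the line, where a gene is called at a Benjamini-Hochberg adjusted p under 0.05. Over all genes tested, 27.3% were called higher and 25.6% lower, so that both counts lie near the shares of all genes. The DMSO and trametinib libraries did not overlap for 5 of the 10 genes (Myc, Mycn, Mycl, Mxd3 and Mxd4), against 31.3% of all genes tested. The 4 lines moved the same way for 9 of the 10, Mga being the exception. The median log2 fold change of the 10 was 0.19, against 0.07 for all genes tested. A bulk RNA measurement cannot tell apart a change in the cells that express a gene from a change in RNA per cell.

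**Figure D1:**
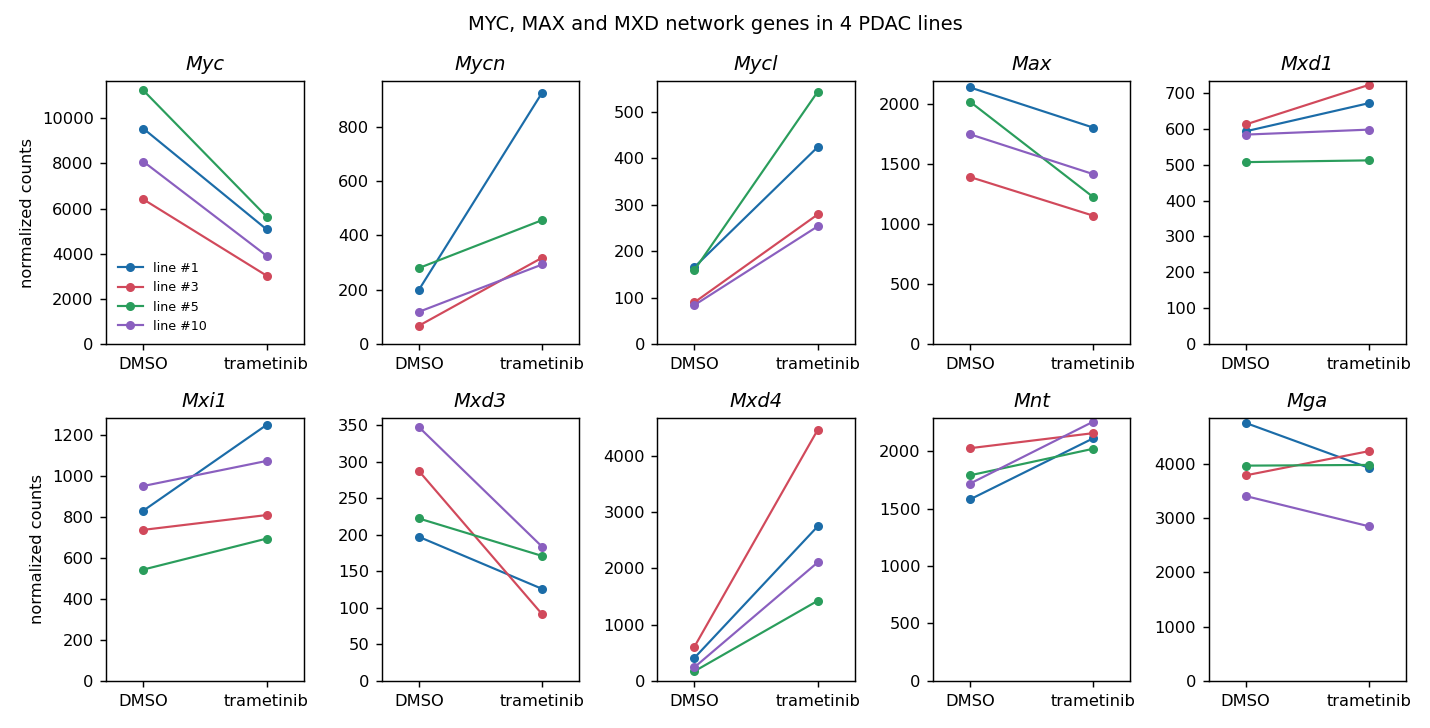
Normalized counts (vertical axes, linear and starting at 0) of the 10 network genes with DMSO and with trametinib, each line of the plot joining the 2 libraries of 1 cell line. Myc falls in each of the 4 lines, from 6413 to 11238 with DMSO to 3036 to 5652 with trametinib, while Mxd4, Mycn and Mycl rise in each line.

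Upstream sequences are shown for 6 of the 7 called genes, since the network is known to act on its own genes. RefSeq windows on GRCm38.p6, from 250 bases before a transcription start to 50 after it, matched 9 of the 10 genes, all but Myc. Both strands were searched for the E-box CACGTG, for the E2F words TTTCCCGC, TTTCGCGC, TTTGCCGC and TTTGGCGC, and for the FOXO word GTAAACA. An E-box was in the windows of 3 of the 9 genes (Max, Mxd4 and Mnt), an E2F word in 1 (Mycn) and the FOXO word in 1 (Mxi1, in 1 of its 3 windows). Of all 32817 windows, 7.15% held the E-box, 2.26% an E2F word and 3.65% the FOXO word. These are matches of letters, and no binding was measured. Mycn has 3 matches of E2F words: TTTGGCGC begins at position -183 from the start, GCGCGAAA, the reverse complement of TTTCGCGC, at -179, and another TTTGGCGC, clear of both, at -168. The stretches below run 5′ to 3′ on the strand of the gene, with matched words in capitals, and the first 4 end at the base before the start.

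Mxd4, chr5:34187711-34187960, minus strand: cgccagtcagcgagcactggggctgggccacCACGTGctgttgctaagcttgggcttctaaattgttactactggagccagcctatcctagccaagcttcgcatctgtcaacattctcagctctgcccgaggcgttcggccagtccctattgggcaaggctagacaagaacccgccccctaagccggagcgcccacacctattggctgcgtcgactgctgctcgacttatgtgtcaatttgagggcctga
Mycn, chr12:12941837-12942086, minus strand: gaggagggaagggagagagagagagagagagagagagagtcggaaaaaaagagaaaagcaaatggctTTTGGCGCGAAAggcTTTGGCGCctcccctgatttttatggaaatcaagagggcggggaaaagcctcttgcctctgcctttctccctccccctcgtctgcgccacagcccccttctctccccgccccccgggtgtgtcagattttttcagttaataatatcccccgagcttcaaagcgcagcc
Mycl, chr4:122995681-122995930, plus strand: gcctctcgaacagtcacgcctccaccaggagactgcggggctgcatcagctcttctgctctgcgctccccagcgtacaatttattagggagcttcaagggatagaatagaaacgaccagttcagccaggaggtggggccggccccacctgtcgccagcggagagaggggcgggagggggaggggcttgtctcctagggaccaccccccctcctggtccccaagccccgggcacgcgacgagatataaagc
Mxd3, chr13:55329732-55329981, minus strand: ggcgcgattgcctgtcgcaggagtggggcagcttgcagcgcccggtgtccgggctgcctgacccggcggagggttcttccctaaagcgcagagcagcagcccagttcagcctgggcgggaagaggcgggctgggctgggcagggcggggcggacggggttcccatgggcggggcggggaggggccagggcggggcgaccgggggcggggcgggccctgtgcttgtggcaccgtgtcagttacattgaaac
Max, chr12:76962241-76962298, minus strand: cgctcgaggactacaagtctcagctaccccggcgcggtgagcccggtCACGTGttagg
Mnt, chr11:74830774-74830833, plus strand: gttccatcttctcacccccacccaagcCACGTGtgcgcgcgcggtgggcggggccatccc

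The E-box begins at position -219 in Mxd4, at -123 in Mnt and at -3 in Max, where it spans the start. The 250 bases before the RefSeq start of Mycl and of Mxd3 held none of the words. For Mycl they lie within the gene as GENCODE M21 places it, from 122995652, so bases before that position were not searched. The stretches of Mxd3, Mycn and Mxd4 lie partly within their GENCODE genes.

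Among the activators, Myc was by far the most abundant. Myc, at 61985391 to 61990374 of chromosome 15 (build GRCm38, annotation GENCODE M21), stood at 9547 normalized counts with DMSO in line #1, at 6413 in line #3, at 11238 in line #5 and at 8084 in line #10. With trametinib it stood at 5085, 3036, 5652 and 3917 in the same lines. Every trametinib library lay below every DMSO library, and the order of the lines (#5, #1, #10, #3) was the same under both treatments. The limma estimate was -1.01 on the log2 scale (standard error, SE, 0.08, limma adjusted p = 0.00031), and the lines varied little around it, from -0.91 in line #1 to -1.08 in line #3. This corresponds to a level 1.88- to 2.11-fold lower in each line. The fall of Myc ranked 1466th among the 15888 genes tested, counted from the largest fall. Dusp6, a phosphatase induced by ERK and the check of the drug here, fell by 2.51 on the log2 scale, and all 10 genes of a list of ERK targets were called lower, against 25.6% of all genes tested, with a median of -3.06 against 0.07. The largest falls in that list were those of the transcription factor genes Etv4 (-5.92), Etv5 (-4.82), Egr1 (-4.64) and Fosl1 (-3.73).

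Mycn, best known as the amplified MYC gene of neuroblastoma, lies on chromosome 12 from 12936093 to 12941914. Its normalized counts were 199.9, 67.9, 280.0 and 119 under DMSO (lines #1, #3, #5 and #10) and 925, 318, 456 and 293 with trametinib. The lowest trametinib library, that of line #10, was only just above the highest DMSO library, that of line #5. Its log2 fold change was 1.602 (SE 0.28, limma adjusted p = 0.0034), and the lines ranged widely, with 2.20 and 2.21 in lines #1 and #3, 1.29 in line #10 and 0.70 in line #5. The smallest rise was in line #5, which had the highest Mycn count with DMSO. Whether the lines differ in this response cannot be tested with 1 library per line and treatment.

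Mycl, a relative first found amplified in small cell lung cancer, lies on chromosome 4 from 122995652 to 123002485. Lines #1, #3, #5 and #10 held 166, 90.2, 159.9 and 84.3 normalized counts of it under DMSO and 424, 279, 543 and 254 under trametinib. Each trametinib library exceeded each DMSO library, and the rise was even over the lines, from 1.35 to 1.76 on the log2 scale. The limma fit put the change at 1.58 on the log2 scale (SE 0.15, limma adjusted p = 0.000495).

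To set the genes against each other, normalized counts were divided by the length of all annotated exons in kilobases. On this scale Myc stood at 3246 ± 758 (SD, n = 4 lines) with DMSO, Mycn at 50.6 ± 28.2 and Mycl at 31.0 ± 10.9. Myc therefore made up 97.6% ± 0.60 (SD, n = 4 lines) of the summed level of the 3 activators with DMSO. With trametinib, Myc stood at 1628 ± 432 per kilobase, Mycn at 151 ± 89.0 and Mycl at 92.9 ± 33.4 (SD, n = 4 lines). The share of Myc was then 87.2% ± 3.19, between 82.9% in line #1 and 90.5% in line #10. The rises of Mycn and Mycl together came to 17.3% of the drop of Myc in line #1, 9.87% in line #3, 7.22% in line #5 and 6.18% in line #10, all per kilobase. The summed level of the 3 activators with trametinib was 0.624 of its DMSO level in line #1, 0.534 in line #3, 0.552 in line #5 and 0.525 in line #10. These sums describe transcripts and were not tested.

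**Figure D2:**
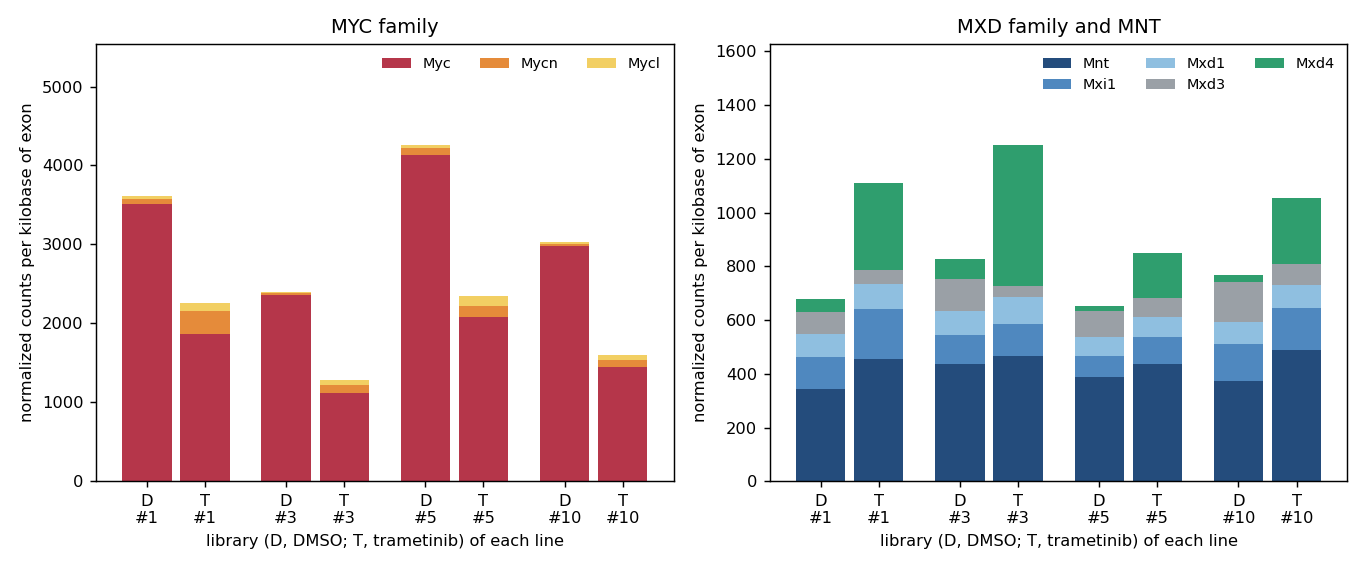
Stacked normalized counts per kilobase of exon (linear axes from 0) of the 3 activators (left) and of the MXD family with Mnt (right), in the DMSO (D) and trametinib (T) library of each line. The activator bars shrink in each line, from 2403 to 4261 with DMSO to 1283 to 2353 with trametinib, with Myc as the main part, and the repressor bars grow, mainly through Mxd4.

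Max, the partner that these factors share, lies on chromosome 12 from 76937269 to 76962201. It stood at 2138, 1392, 2019 and 1748 normalized counts under DMSO (lines #1, #3, #5 and #10) and at 1803, 1069.8, 1224 and 1416 with trametinib. It was lower with trametinib in every line, although the groups overlapped. The log2 fold change was -0.41 (SE 0.11, limma adjusted p = 0.017), and the lines ranged from -0.72 (line #5) to -0.25 (line #1). The call was lost with libraries rescaled to equal totals (limma adjusted p = 0.054), without the block (0.16) and without line #5 (0.068). Per kilobase, Max stood at 507 ± 92.0 with DMSO and 383 ± 87.99 with trametinib (SD, n = 4 lines), well below Myc under both treatments.

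Among the repressors, Mxd4 changed most. Mxd4, also called MAD4 and associated with differentiating cells, lies on chromosome 5 from 34173883 to 34187720, and its log2 fold change ranked 276th from the highest of 15888. Under DMSO the lines #1, #3, #5 and #10 held 409, 609, 172 and 243 normalized counts of it, and under trametinib 2749, 4465, 1425 and 2108. The lowest trametinib library was above the highest DMSO library, and the rise was 6.71- to 8.67-fold in each line. The limma fit put the change at 2.94 on the log2 scale (SE 0.11, limma adjusted p = 5.7e-05). It was the only 1 of the 10 genes whose change passed when tested against a minimum of 2-fold (limma adjusted p = 0.00035). Exons of Mxd4 overlap those of Gm42846, an antisense gene not analysed here.

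**Figure D3:**
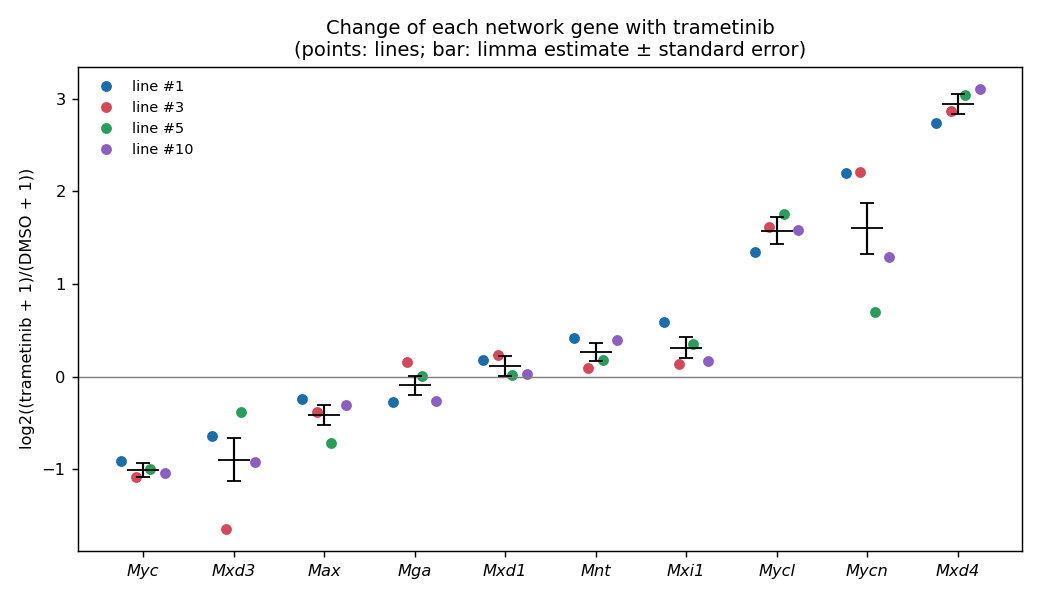
Change of each gene with trametinib on the log2((trametinib + 1)/(DMSO + 1)) scale. Coloured points are the 4 lines and black bars the limma estimate with its standard error. Mxd4 stands apart at 2.94, Mycn spreads from 0.70 to 2.21, and Myc lies close to -1.01 in each line.

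Mxd3, also called MAD3, is the member of the family known for expression in cells that replicate their DNA, and it moved opposite to Mxd4. It lies on chromosome 13 from 55325168 to 55329823. Its normalized counts were 197, 288, 223 and 348 under DMSO (lines #1, #3, #5 and #10) and 126, 91.4, 171 and 184 with trametinib. All trametinib libraries lay below all DMSO libraries, by the least in line #5 (-0.38 on the log2 scale) and by the most in line #3 (-1.64). The log2 fold change was -0.89 (SE 0.23, limma adjusted p = 0.016), and the adjusted p was 0.0505 without the block and 0.056 without line #10. Of 10 proliferation genes, all 10 were called lower, against 25.6% of all genes tested, with a median of -1.49 that was also lowest in line #3, at -2.43, and their part in the fall of Mxd3 was not tested. Exons of Mxd3 overlap those of Prelid1 on the other strand, which changed by -0.82 on the log2 scale (limma adjusted p = 0.0051), and whether reads were shared between them was not tested.

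Mnt, the repressor found in most cells whether they cycle or rest, lies on chromosome 11 from 74830920 to 74845725. It stood at 1581, 2027, 1790.3 and 1718 normalized counts under DMSO (lines #1, #3, #5 and #10) and at 2113, 2158, 2022 and 2258 with trametinib. It was higher in each line but by little, from 0.09 in line #3 to 0.42 in line #1, and the groups overlapped. The limma fit put the change at 0.27 on the log2 scale (SE 0.09, limma adjusted p = 0.049). This call lies at the threshold and was kept in 6 of 14 alternatives (those other than the minimum of 2-fold), with adjusted p between 0.011 and 0.19 in limma. Leaving out line #1, #5 or #10 ended it.

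Mxi1, a repressor of the MXD family and a candidate tumor suppressor, lies on chromosome 19 from 53310518 to 53375810. The counts of lines #1, #3, #5 and #10 were 829, 736, 542 and 949.6 under DMSO and 1247, 808, 693 and 1072 under trametinib. The 4 lines all moved up, but the groups overlapped, and the log2 fold change of 0.31 (SE 0.11) did not pass (limma adjusted p = 0.056). It passed with libraries rescaled to equal totals (adjusted p = 0.016) and without line #3 (0.032). Mxd1, the founding MXD gene, lies on chromosome 6 from 86647042 to 86669161 and stood at 507 to 612 normalized counts with DMSO and at 512 to 722 with trametinib. Its log2 fold change was 0.12 (SE 0.11, limma adjusted p = 0.39), with no line above 0.24.

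Mga, on chromosome 2 from 119897228 to 119969581, was the member without a shared direction. Trametinib took it down from 4756 to 3928 normalized counts (line #1) and from 3408 to 2850.2 (line #10), and up from 3789 to 4235 (line #3) and, barely, from 3968 to 3982 (line #5). The limma fit put the change at -0.09 on the log2 scale (SE 0.10, limma adjusted p = 0.47), and its sign turned with libraries rescaled to equal totals and with quantile normalization.

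Per kilobase, Mnt was the most abundant of the repressors with DMSO, at 384 ± 40.3 (SD, n = 4 lines), followed by Mxi1 at 112 ± 25.2, Mxd3 at 111 ± 28.5, Mxd1 at 81.2 ± 6.51 and Mxd4 at 42.3 ± 22.9. Mxi1 and Mxd3 did not differ beyond their spread. With trametinib, Mnt stood at 462 ± 21.2 and Mxd4 at 317 ± 154, followed by Mxi1 at 139.98 ± 36.8, Mxd1 at 88.5 ± 12.9 and Mxd3 at 60.4 ± 17.9 (SD, n = 4 lines). By exon length, Mxd4 thus went from the lowest mean of the 5 to the one next to Mnt. Its share of their summed level went from 5.66% ± 2.68 to 28.6% ± 9.75 (SD, n = 4 lines). Its order with Mnt depends on the length used. All exons of Mxd4 span 8483 bases and its longest transcript 4627, against 4627 and 4590 for Mnt. With the longest transcript, Mxd4 had the highest trametinib mean of the 5, from 2687 normalized counts against 2138 for Mnt. By exon length, Mxd4 was above Mnt in line #3, at 526 against 466 per kilobase. With the longest transcript, Mxd4 was also above Mnt in line #1, from 2749 normalized counts against 2113. Mga stood at 259 ± 37.0 per kilobase with DMSO and, with trametinib, between 186 in line #10 and 276 in line #3.

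The summed level of the 5 repressors relative to that of the 3 activators, both per kilobase, was 0.188 with DMSO and 0.493 with trametinib in line #1, and 0.344 and 0.976 in line #3. In line #5 it was 0.153 and 0.362, and in line #10 0.253 and 0.663. The ratio was higher with trametinib in 4 of 4 lines, and line #3 came closest to equal levels. The ratio counts transcripts, not protein, and weighs each repressor alike. With the length of the longest transcript in place of all exons, a choice made after seeing the data, its mean was 0.246 with DMSO and 0.732 with trametinib, against 0.234 ± 0.084 and 0.623 ± 0.27 (SD, n = 4 lines). With that length, the summed repressors exceeded the summed activators in line #3 with trametinib.

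Levels were also compared between the lines. Of the 10 genes, 4 (Mxd4, Myc, Mycl and Mxi1) differed between lines in limma's F test of the line terms, which uses both libraries of each line. Over all genes tested the share was 27.6%, so that the count lies near it. Mxd4 had the smallest adjusted p, 0.0029, and with DMSO its highest line was 3.54-fold above its lowest. For Myc (limma adjusted p = 0.010) the highest line was 1.75-fold above the lowest with DMSO and 1.86-fold with trametinib. For Mycl the adjusted p was 0.028 and for Mxi1 0.038. Mycn spread most between lines with DMSO, 4.12-fold, but its adjusted p was 0.058 in limma. Leaving out line #1 or line #10 left 2 genes, Myc and Mxd4. Line #5 had the highest Myc and the lowest Mxd4 under both treatments, and line #3 the lowest Myc and the highest Mxd4. Within a treatment there are only 4 lines, too few for a correlation, and lines #1 and #10 did not follow this order.

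**Figure D4:**
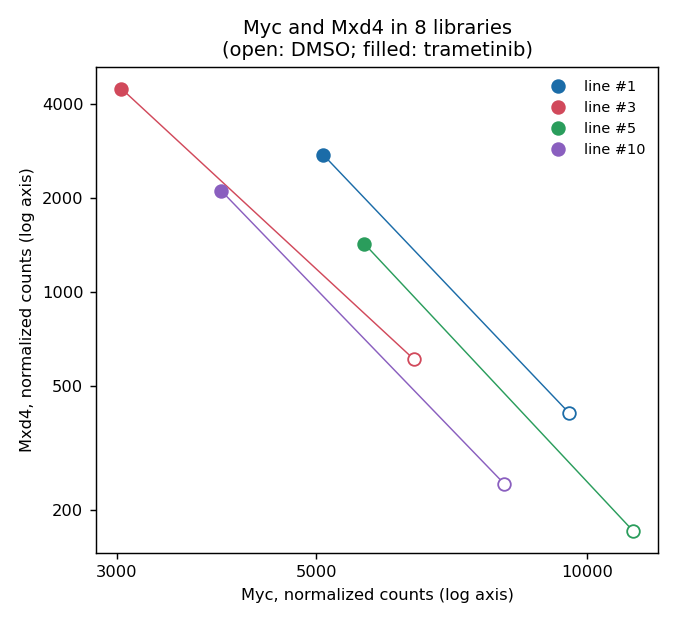
Myc (horizontal) and Mxd4 (vertical) normalized counts in the 8 libraries, both on log axes, with open circles for DMSO, filled circles for trametinib and a line joining the libraries of 1 cell line. All 4 lines move toward lower Myc and higher Mxd4, and line #3 is at the upper left of each treatment.

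Among the 5 genes most like Myc across the 8 libraries, by Pearson's r of log2(value + 1), were Eif3g (0.995), Fam49b (0.994), Cbx3 (0.994) and Chst1 (0.991). Eif3g encodes a subunit of a translation initiation factor, Cbx3 a heterochromatin protein and Chst1 a sulfotransferase. The log2 fold changes of these 4 were -0.67, -0.90, -0.94 and -3.57. The 8 libraries share the treatment contrast, and without line #3, 0 of the 5 were among the 5 most like Myc. Among the 10 network genes, r with Myc was -0.94 for Mxd4, -0.86 for Mnt and 0.82 for Max.

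Genes that MYC is known to activate fell together with it. Of a list of 71 such genes, 66 were called lower and 1 higher with trametinib, against 25.6% and 27.3% of all genes tested, and the median log2 fold change was -1.19, against 0.07 for all genes tested. The median of the list was -1.07 in line #1, -1.64 in line #3, -0.94 in line #5 and -0.995 in line #10. The largest falls were those of Dkc1 (-2.01, standard error 0.21, adjusted p = 0.00066 in limma), which modifies ribosomal RNA and stabilizes telomerase RNA, and Srm (-1.995), the spermidine synthase. Mcm5, a helicase subunit for DNA replication, followed at -1.85, and Hspd1, the mitochondrial chaperonin, at -1.81. The gene that rose was Tert, the catalytic subunit of telomerase, from 326 to 556 normalized counts with DMSO to 444 to 862 with trametinib (log2 fold change 0.48, adjusted p = 0.010 in limma), a call lost without the block and without line #10. The 4 that did not pass were Hk2 (-0.10), Sord (0.14), Tfb2m (-0.28) and Ccnd2 (-0.15). The 10 proliferation genes fell alongside the list, by 1.77 for Birc5, 1.63 for Tyms, 1.59 for Ccna2 and 1.52 for Mki67 on the log2 scale, and their part in the fall of the MYC targets was not tested. Of the 70 RefSeq windows of the listed genes, 28.6% held the E-box, 11.4% an E2F word and 1.43% the FOXO word, against 7.15%, 2.26% and 3.65% of all windows.

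Of 9 genes that MYC is known to repress, 6 were called higher and 0 lower in limma, against 27.3% and 25.6% of all genes tested, and 6 and 0 at an unadjusted p under 0.05. Without the block, 3 were called higher. The median log2 fold change was 0.55, against 0.07 for all genes tested. Thbs1, the secreted matrix protein thrombospondin, went from 924 to 8170.3 normalized counts with DMSO to 31185 to 49526 with trametinib. Its log2 fold change was 3.64 (limma adjusted p = 0.00054), with 3.16 without line #3 and 3.99 without line #1. Gadd45a, a stress and growth arrest gene, rose by 1.86, Cdkn1c, a CDK inhibitor, by 2.13, and Ndrg1, a differentiation gene, by 0.90. Cdkn1c was low, at 6.54 to 87.7 normalized counts with DMSO, and its call was lost without the block. The CDK inhibitors Cdkn2b and Cdkn1a rose by 0.55 and 0.54, and both calls were lost without the block. That of Cdkn1a (limma adjusted p = 0.045) was also lost without line #1, #3 or #10 and in 4 other alternatives besides the minimum of 2-fold. Cdkn1b (0.25), Cebpa (0.13) and Ndrg2 (-0.11) did not pass. Cdkn1b passed without line #3, at 0.44 (limma adjusted p = 0.0092). The sign of Cebpa turned without line #10 and with quantile normalization, and that of Ndrg2 without line #3 and with equal totals.

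**Figure D5:**
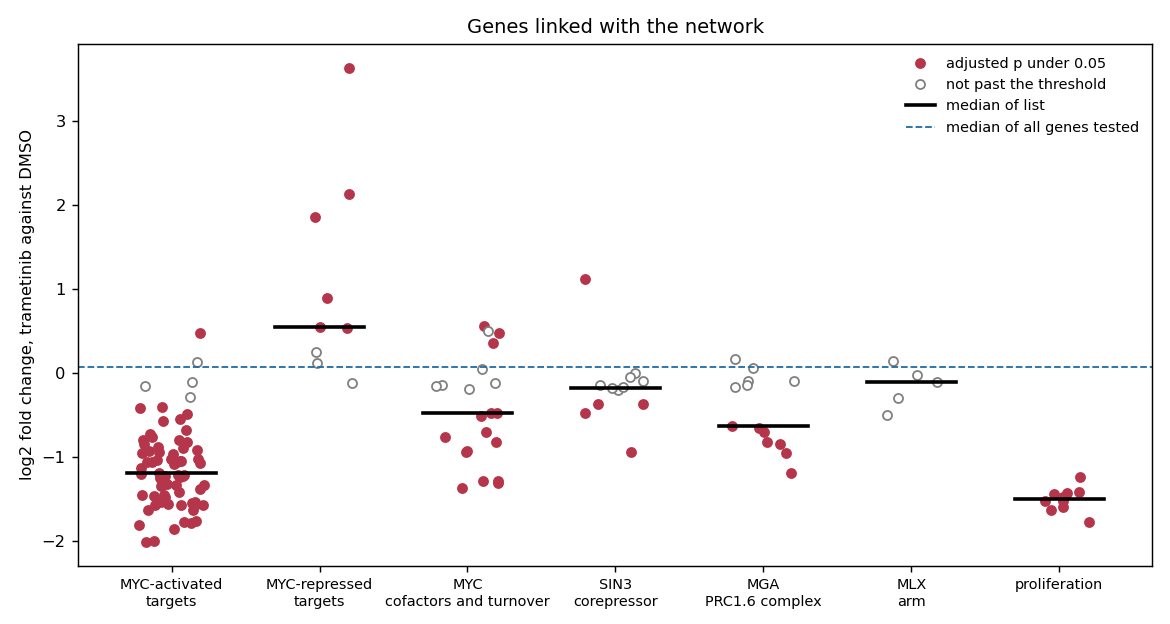
Log2 fold changes of the genes in 7 lists linked with the network, 1 point per gene, filled where the adjusted p in limma was under 0.05, with the median of each list (black bar) and of all genes tested (dashed line at 0.07). The MYC-activated targets lie around -1.19 and the proliferation genes around -1.49, below the other lists.

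Transcripts for proteins that help MYC act or that set its lifetime were called in both directions. Of 21 listed genes, 12 were called lower and 3 higher, against 25.6% and 27.3% of all genes tested, with a median of -0.48. The ATPases Ruvbl1 (-1.37) and Ruvbl2 (-1.28), which belong to MYC's chromatin complexes, the kinase Aurka (-1.30), which stabilizes MYC proteins, and the ubiquitin ligase subunit Skp2 (-1.29) fell most. The 3 that rose were Trrap (0.57), the scaffold that brings acetyltransferases to MYC, Usp22 (0.48), a deubiquitinase, and Gsk3b (0.36), the kinase that marks MYC for degradation. The call for Gsk3b was lost with centring on the median, without the block and without line #1. Fbxw7, the ubiquitin ligase that reads this mark, had a log2 fold change of -0.11 and did not pass.

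The SIN3 corepressor is what MXD proteins recruit. Of its 12 listed genes, 1 was called higher and 4 lower, with a median of -0.17, and over all genes tested 27.3% were called higher and 25.6% lower. Arid4b, a subunit that binds chromatin, rose by 1.12 (limma adjusted p = 0.0017), and the histone-binding subunits Rbbp7 and Rbbp4 fell by 0.93 and 0.48, the call of Rbbp4 being lost without the block. Sin3a, the scaffold, had a log2 fold change of -0.36 (limma adjusted p = 0.027), a call that 8 alternatives besides the minimum of 2-fold ended, and Sin3b one of 0.01. Without line #5, 2 genes of the list were lower.

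A further list holds 13 genes for the Polycomb complex that contains MGA. Of these, 7 were called lower and 0 higher in limma, against 25.6% and 27.3% of all genes tested, and again 7 and 0 at an unadjusted p under 0.05, with a median of -0.62. Tfdp1, a partner of E2F factors, fell most (-1.18), followed by Cbx3 (-0.94), L3mbtl2 (-0.84) and Wdr5 (-0.82), while the catalytic subunits Ring1 (0.17) and Rnf2 (0.06) and the deacetylases Hdac1 (-0.09) and Hdac2 (-0.13) did not pass. Cbx3 is also in the list of MYC-activated targets and Wdr5 in that of the cofactors. Mga itself, as given above, did not pass either.

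MLX, a relative of MAX, and its partners MLXIP and MLXIPL form a parallel arm that senses glucose. Of its 5 listed genes, 0 were called in limma, against 27.3% of all genes tested called higher and 25.6% lower, and 0 were higher and 1, Txnip, was lower at an unadjusted p under 0.05. Mlx stood at 1107 to 1466 normalized counts with DMSO and 1058 to 1388 with trametinib, and its log2 fold change was -0.11 (SE 0.09). Its exons overlap those of Psmc3ip on the other strand, which changed by -1.26 on the log2 scale (limma adjusted p = 0.0025), and whether reads were shared was not tested. Mlxip had a log2 fold change of 0.15 and Mlxipl, low at 20.6 to 59.7 normalized counts, one of -0.49. The value of Mlxipl was -0.20 without line #3 and -0.94 with quantile normalization, and it passed in neither. Of the targets of Mlxip and Mlxipl, Txnip, which restrains glucose uptake, had a log2 fold change of -0.30 (limma adjusted p = 0.059) and Arrdc4 one of -0.02.

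The libraries held 33385300 to 36385700 normalized counts with DMSO and 30680100 to 33063300 with trametinib, fewer with trametinib in each line. By the spacing of low values they held about 29319700 to 45952700 reads. The lowest network gene of a library rested on about 65.4 to 214 reads. The epithelial genes Cdh1, Krt8, Krt18 and Krt19 were abundant, but Epcam was at most 10.4 normalized counts. With trametinib, Sox9 (-1.49), Krt18 (-0.82), Krt8 (-0.74) and Krt19 (-0.66) were called lower, while Cdh1 (-0.02) did not pass. All 4 calls were lost without the block, that of Krt8 also without line #5, and that of Krt19 without line #3 or line #5. The summed level of 8 fibroblast markers was 94.9 to 366 normalized counts with DMSO and 439.95 to 1258 with trametinib, with Lum at 0 in every library and Col1a1 the 1 called gene (3.60). Without line #5 the highest DMSO sum was 159, without line #3 the lowest DMSO sum was 155, and without line #1 the lowest trametinib sum was 993. For the 6 leukocyte markers in the table the sums were 150.05 to 241 and 235 to 515, with Cd3e at most 0.488 and Csf1r (2.83) called, a call lost without the block. For 4 endothelial markers they were 30.9 to 54.6 and 62.7 to 831, with Tek (3.77) called. The highest of these sums was that of line #3, where Tek stood at 805, and without that line the highest was 202. Without line #10 the lowest trametinib sum was 100.8. The part of these genes in the results above was not tested.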

How the data were processed

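The authors made stranded mRNA libraries (TruSeq, 2 × 100 bp reads) from 8 cultures and deposited 1 table of normalized counts per gene, a signal scaled between libraries and not by length. The submitters' processing notes name CASAVA 2.17, Salmon 0.12, DESeq2 1.18 and the build mm10, with no role for each. Between 40.6% and 62.5% of values under 20 reads lay within 0.02 of a whole read, so reads could not be recovered and count tests were not run.

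The scale was log2(value + 1), and the test was that of limma 3.58.1 under R 4.3.3 (lmFit, eBayes with trend), with treatment and cell line as terms. Genes with a mean under 10 were left out, and p-values were adjusted over 15888 genes by Benjamini-Hochberg with a threshold of 0.05. A fold change on this scale understates low genes. Libraries of the same line are paired by the line number in the labels, and their deviations from the treatment means correlated at 0.63 to 0.72. Since each line is 1 culture per treatment, the treatment p-values set the mean change within lines against the spread of that change between these lines. Differences in level between lines are taken up by the line term. On simulated data for trametinib against DMSO (15181 genes), the fit recovered 78 of 95 genes changed 4-fold and 38 of 96 changed 2-fold, with 8 false calls. No other tested gene was changed there, a far smaller share than the 27.3% and 25.6% called in the data. The adjustment depends on that share, so recovery in the data may differ.

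The members and lists were chosen with earlier results of these data known. The genes named are the 10 members, the MLX arm, Dusp6, the 4 called genes of each list with the largest change, those called against its majority, and the 5 most like Myc, of which 1 is not reported here, nor is 1 allele of the mice. Any other gene was named after its values were seen. Positions and exon lengths are from GENCODE M21 (GRCm38) and promoters from RefSeq (GRCm38.p6). Python 3.11.15, pandas 2.3.3 and matplotlib 3.10.9 were used. The alternatives were pseudocounts of 0.1 and 5, 3 other scalings, other filters, no block, other eBayes settings, a minimum change of 2-fold and leaving out each line.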

Additional observations from a re-analysis of the deposited data

Results flagged for a closer look

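Among the network genes and the MLX arm, 45 groups of 4 values were searched for a line far from the other 3, and 1 was found, where chance gives about 2.25. The change of Mlxipl on the log2 scale was -1.37 in line #3 and between -0.30 and -0.09 in the others, at low counts. Mga moved in opposite directions in different lines, with a log2 fold change of -0.28 in line #1, 0.16 in line #3, 0.0049 in line #5 and -0.26 in line #10. The difference between lines was not tested, since each line has 1 library per treatment.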

How the results depend on the processing

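Of 14 alternatives other than the minimum change of 2-fold, Myc, Mycn, Mycl and Mxd4 passed in 14, with log2 fold changes of -1.07 to -0.86, 1.34 to 1.90, 1.26 to 1.70 and 2.88 to 3.07. Max passed in 11, Mxd3 in 12, Mnt in 6 and Mxi1 in 2, and Mxd1 and Mga in 0. Rescaling to equal totals moved the median of all genes by 0.13 on the log2 scale, to 0.20.

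Tested against a minimum of 2-fold, where the log2 fold changes are those reported, 1 member was higher and 0 were lower; Mycn (1.602), Mycl (1.58), Myc (-1.01), Max (-0.41), Mxd3 (-0.89) and Mnt (0.27) no longer passed. Over all genes this test called 557 higher and 176 lower. For the MYC-activated targets it called 0 higher and 7 lower, for the repressed targets 2 higher, and for the cofactors, the SIN3 genes, the MGA complex and the proliferation genes 0 in each direction. With no replicate block, 2205 genes were higher and 2347 lower, and 1 member, Myc, was lower; Max (-0.41), Mxd3 (-0.89) and Mnt (0.27) did not pass. Then 0 of the activated targets were higher, 3 of the repressed targets were higher and 1 SIN3 gene was lower. The block, that is the pairing by line, changed no call of Myc, Mycn, Mycl or Mxd4.

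With equal totals, Max (-0.28) did not pass and Mxi1 (0.44) did, Mga (0.035), Mlx (0.021) and Arrdc4 (0.11) changed sign, 1 gene of the MLX arm was higher and 2 SIN3 genes were lower. With quantile normalization, Mga (0.025) changed sign, 2 SIN3 genes were lower and 2 of the 5 genes most like Myc stayed. With centring on the median, Mnt (0.21) did not pass, 1 gene of the MLX arm was lower and 3 of the 5 most like Myc stayed. Mnt also failed with a pseudocount of 0.1 (0.27), with no filter (0.27) and without the trend (0.27).

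With each line left out in turn, Max ranged from -0.47 to -0.31, Mxi1 from 0.22 to 0.37, Mxd3 from -1.07 to -0.65, Mnt from 0.22 to 0.33 and Arrdc4 from -0.22 to 0.12. Between 0 and 1 activated targets were higher, 2 to 3 SIN3 genes were lower, 2 to 5 members differed between lines, and 0 to 2 of the 5 genes most like Myc stayed. Of 734 values of the 49 genes chosen by the naming rule beside the members, 669 kept direction and call. Genes named after their values were seen, such as Cdkn1a and Cebpa, are not in this count. The cause of these changes was not tested.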
